A study of Mus musculus with 29 samples.

Results

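The libraries compared were those of mouse embryonic stem (ES) cells with hairpin 2 (sh2) and with hairpin 1 (sh1) against Dax1, the common name of Nr0b1. They were 4 of the 20 RNA-seq libraries of the series, 2 for each hairpin, and every row of their read count table was followed, genes and transposable elements alike. The 129/Ola cells were cultured on gelatin-coated plates in serum medium. Both hairpin groups are labelled Dax1 knockdown and untreated, and the 2 control libraries of the same table are labelled wild type (WT) and untreated. Nothing in the labels used here says what the control cells carried, which sequences the hairpins had or how long they acted. The labels do not say that replicates came from separate cultures, so p-values measure the spread between these libraries, which may be technical.

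Nr0b1 encodes an orphan nuclear receptor that lacks the usual DNA-binding domain and works mostly as a corepressor of other nuclear receptors. In mouse ES cells its gene is a target of the naive pluripotency network, the set of transcription factors that keeps the cells in a state like the preimplantation epiblast. The 2-cell-like state, which gave the series its title, is a rare and passing state of ES cultures. In it the homeobox factor DUX switches on Zscan4 genes, Usp17l genes and the endogenous retrovirus MERVL, as in the embryo after its first cleavage.

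Nr0b1 itself (chromosome X, 86191775 to 86195947 in GRCm38.p6) was lower with both hairpins and lower with sh1 than with sh2. It reached 149.9 and 158 CPM in the controls, 62.6 and 58.2 CPM with sh1, and 77.5 and 77.7 CPM with sh2. The 3 groups did not overlap, and sh2 left more Nr0b1 RNA than sh1 (log2 fold change 0.36, SE 0.0627, adjusted p = 4.58e-05; log2 fold changes are sh2 against sh1 unless stated, so positive values are higher with sh2). CPM values are read counts relative to the scaled library total. Against the controls the log2 fold change was -1.35 for sh1 and -0.99 for sh2, a 2.55-fold and a 1.98-fold loss, with the control libraries shared by both values. The hairpins thus differed 1.28-fold in the RNA of the targeted gene.

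The libraries held 13097044 to 15139518 counts, of which 5.02% to 5.98% lay on transposable elements. ES cell markers were high throughout: the summed level of 8 fixed markers ran from 5673 to 5806 CPM with sh1 and from 7153 to 7464 CPM with sh2. The groups differed in ways not tied to the targeted gene by any label. Ddx3y, on the Y chromosome, had 7 and 7 counts in the controls, 723 and 817 counts with sh1 and 214 and 254 counts with sh2. All 5 tested Y genes were lower with sh2 than with sh1, by log2 fold changes of -1.14 (Eif2s3y) to -2.98 (Usp9y). Genes of chromosome 1 above a log2 CPM of 3 had a median log2 fold change of 0.17, while that of each other autosome lay between 0.02 and 0.05. Against the controls, the chromosome 1 median was -0.34 for sh1 and -0.18 for sh2, and the chromosome 19 median was -0.29 and -0.27. The labels give 1 strain but do not say whether the control, sh1 and sh2 cells came from the same ES line or subclone. A difference of line or subclone and an effect of the hairpins therefore cannot be told apart in these values. The part of the Y, chromosome 1 and chromosome 19 differences in the results was not tested. Counts without the genes of chromosomes 1, 19 and Y are given beside the main ones.

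**Figure D1:**
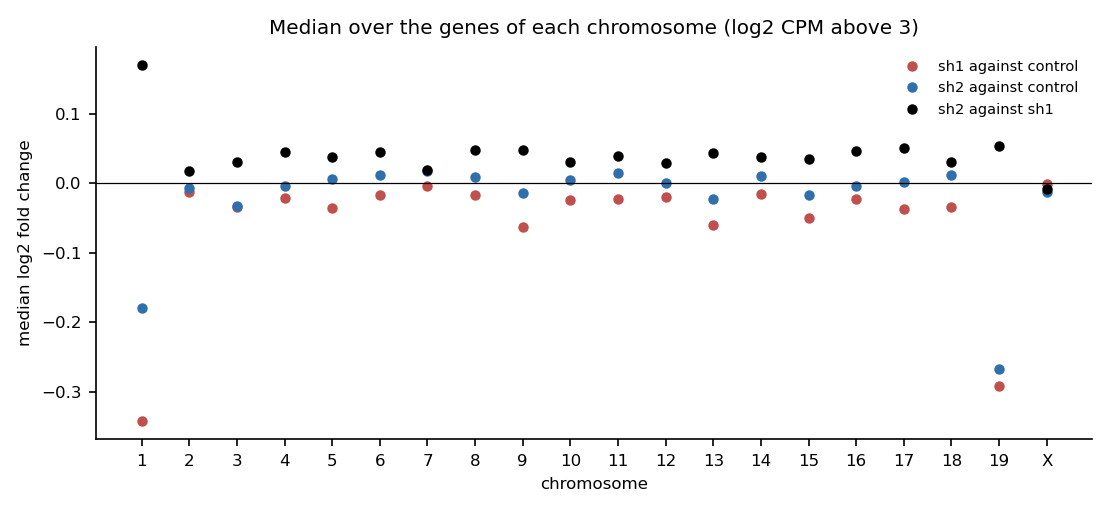
Median log2 fold change (y axis) over the genes of each chromosome (x axis) above a log2 CPM of 3, for sh1 against control (red), sh2 against control (blue) and sh2 against sh1 (black); Y genes are not drawn. Chromosome 1 stands at 0.17 for sh2 against sh1, and chromosomes 1 and 19 lie below 0 for both hairpins against control.

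With sh2, 2516 genes were higher and 2670 lower than with sh1 among 14017 tested (edgeR quasi-likelihood F test on all 6 libraries, Benjamini-Hochberg adjusted p under 0.05), or 17.9% and 19% of them. These shares are the background of the gene list counts below. The even split did not hold for large differences. With a fold change of at least 1.5 as well, 538 genes were higher (3.84%) and 1544 lower (11%). Most of the strongly different RNAs were therefore those more abundant with sh1. The median log2 fold change of all tested genes was 0.00. Without chromosomes 1, 19 and Y, 2180 genes were higher and 2459 lower. Against the controls, sh1 had 3193 genes higher (22.8%) and 3066 lower (21.9%) and 110 elements higher (13.3%) and 75 lower (9.07%). The same counts for sh2 were 1674 (11.9%), 1850 (13.2%), 186 (22.5%) and 11 (1.33%). Some of these counts moved by over 1.5 times when 1 library was left out. The 75 elements lower with sh1 became 39 without the first sh1 library and 25 without the first control. The 1674 genes higher with sh2 became 1059 without the first sh2 library, and 1098 and 1011 without the first and the second control. The 186 elements higher with sh2 became 103 without the second sh2 library and 89 without the second control, and the 11 lower became 3 without the first sh2 library. DESeq2 called 29 elements lower with sh1, and for sh2 953 and 1159 genes and 93 and 3 elements. With a 1.5-fold minimum they were 13%, 5.31%, 7.74% and 1.57% for sh1 and 4.74%, 3.32%, 8.34% and 0.363% for sh2, in the same order. More genes were thus called for the hairpin with the deeper loss. Libraries of the hairpins did not overlap for many features: 33.9% of all tested genes and elements had both sh2 libraries above both sh1 libraries, and 32.8% had them below.

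**Figure D2:**
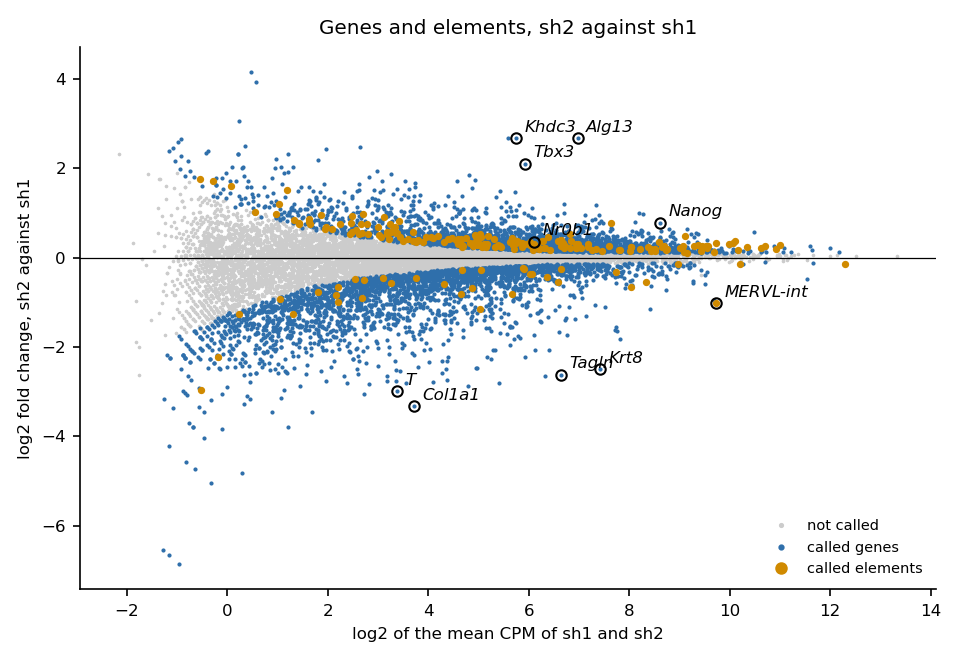
Log2 fold change of sh2 against sh1 (y axis) against the log2 of the mean CPM of both hairpin groups (x axis) for each tested gene and element. Blue points are called genes, orange points called elements and grey points features that were not called; circles mark 10 named features, from Alg13 at 2.68 to Col1a1 at -3.32.

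All called genes of the 2-cell embryo were lower with sh2 than with sh1. Of 73 genes listed, 55 were in the table and 45 could be tested, 8 of them only because of their level with sh1. With sh2, 37 fell and 0 rose in edgeR's test (30 and 0 by DESeq2, and 38 and 0 at an unadjusted p under 0.05), against 19% and 17.9% of all tested genes, and the list's median log2 fold change was -1.23. The sum over the list was 34.6 and 33.8 CPM in the controls, 1086 and 1043 CPM with sh1, and 444 and 437 CPM with sh2. The cells with the smaller loss of Nr0b1 thus held less 2-cell RNA, yet still far more than the controls. In bulk RNA, fewer cells in the state and less RNA in each such cell cannot be told apart.

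Dux, the master regulator of the state, was at 0 counts in both controls. It reached 3.42 and 3.67 CPM with sh1 against 1.05 and 2 CPM with sh2 (log2 fold change -1.21, SE 0.341, adjusted p = 0.00625). Its call rested on few reads, with an adjusted p of 0.0657 by DESeq2 and of 0.114 without the first sh2 library. Zscan4c, which encodes a telomere-associated zinc finger protein and is a standard marker of the state, was at 0.0669 and 0 CPM in the controls, 64.1 and 60.9 CPM with sh1, and 21.8 and 27.8 CPM with sh2 (log2 fold change -1.33, SE 0.0963, adjusted p = 1.13e-11). Its close relatives followed: Zscan4d stood at 76.8 and 69.7 CPM with sh1 against 24.9 and 25.6 CPM with sh2, and Zscan4f at 107 and 109.8 CPM with sh1 against 39.9 and 40.9 CPM with sh2. Both fell, by 2.9-fold and 2.69-fold. In each of these genes every sh2 library lay below every sh1 library and above every control.

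Zscan4 is a family of near-identical copies, and how reads that match several of them were counted is not stated, so values of single copies are uncertain. The promoters of Zscan4c and Zscan4d (RefSeq, GRCm38.p6, 250 bases before to 50 after the annotated start) are shown as the regulatory sequence of this group. Of their 300 bases, 282 (94%) had an identical partner in the alignment, 7 were paired with a different base and 11 had no partner. This window is mostly not transcribed and does not show how alike the RNAs are. Capitals mark bases with no identical partner in the alignment. Zscan4c lies at chr7:11005495-11005794 on the plus strand and Zscan4d at chr7:11166099-11166398 on the minus strand.
Zscan4c: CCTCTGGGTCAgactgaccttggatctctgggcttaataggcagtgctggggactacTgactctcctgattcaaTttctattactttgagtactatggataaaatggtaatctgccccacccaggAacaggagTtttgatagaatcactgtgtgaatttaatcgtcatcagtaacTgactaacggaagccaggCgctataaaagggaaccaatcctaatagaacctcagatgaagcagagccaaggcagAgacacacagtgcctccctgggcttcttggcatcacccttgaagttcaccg
Zscan4d: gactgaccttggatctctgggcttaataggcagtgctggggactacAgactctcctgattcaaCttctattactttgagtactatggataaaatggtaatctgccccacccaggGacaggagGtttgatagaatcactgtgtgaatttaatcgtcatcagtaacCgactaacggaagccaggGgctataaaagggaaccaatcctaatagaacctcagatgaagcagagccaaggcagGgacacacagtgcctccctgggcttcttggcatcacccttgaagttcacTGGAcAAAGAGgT
Only 7 aligned bases differed, and 11 bases of each promoter had no partner. The authors' way of counting reads that map to several places is not stated, so the members of this family are not independent measurements.

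Other 2-cell families behaved alike. Usp17le, of the Usp17-like deubiquitinase cluster, was at 34.7 and 32.2 CPM with sh1 against 9.84 and 10.6 CPM with sh2 (log2 fold change -1.71, SE 0.116, adjusted p = 2.78e-12). Zfp352, a zinc finger gene derived from a retroposed copy, was at 3.63 and 3.6 CPM with sh1 against 1.5 and 1.23 CPM with sh2 and at 0 counts in both controls (log2 fold change -1.40, SE 0.331, adjusted p = 0.00156). The members that were not called included Tcstv3, of a 2-cell gene family on chromosome 13, at 3.14 and 2.45 CPM with sh1 against 2.25 and 1.08 CPM with sh2 (adjusted p = 0.12), and Zfp809, which encodes a repressor of retroviruses, at 20.6 and 24.8 CPM with sh1 and 23.1 and 25 CPM with sh2, beside 20.8 and 20.8 CPM in the controls. The smallest differences in the list were among genes already expressed in the controls or with few reads.

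The retroviral arm of the state moved the same way. MERVL-int, the internal region of MERVL, was at 108 and 110.5 CPM in the controls, 1119.9 and 1149.6 CPM with sh1, and 529 and 592 CPM with sh2 (log2 fold change -1.02, SE 0.0468, adjusted p = 6.19e-16). Its promoter repeat MT2_Mm was at 50.8 and 46.6 CPM in the controls, 323 and 319 CPM with sh1, and 236 and 173 CPM with sh2 (log2 fold change -0.65, SE 0.0763, adjusted p = 1.15e-07). All 3 tested members of the MERVL list fell. Both sh2 libraries lay between the controls and sh1, about a halving of MERVL-int but a smaller difference of MT2_Mm, where the sh2 libraries themselves were far apart. MT2B1, an older relative, was the 1 of 5 other MT2 elements that fell, at 114 and 115 CPM with sh1 against 74.8 and 81.7 CPM with sh2 (log2 fold change -0.55, SE 0.0649, adjusted p = 1.46e-07).

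**Figure D3:**
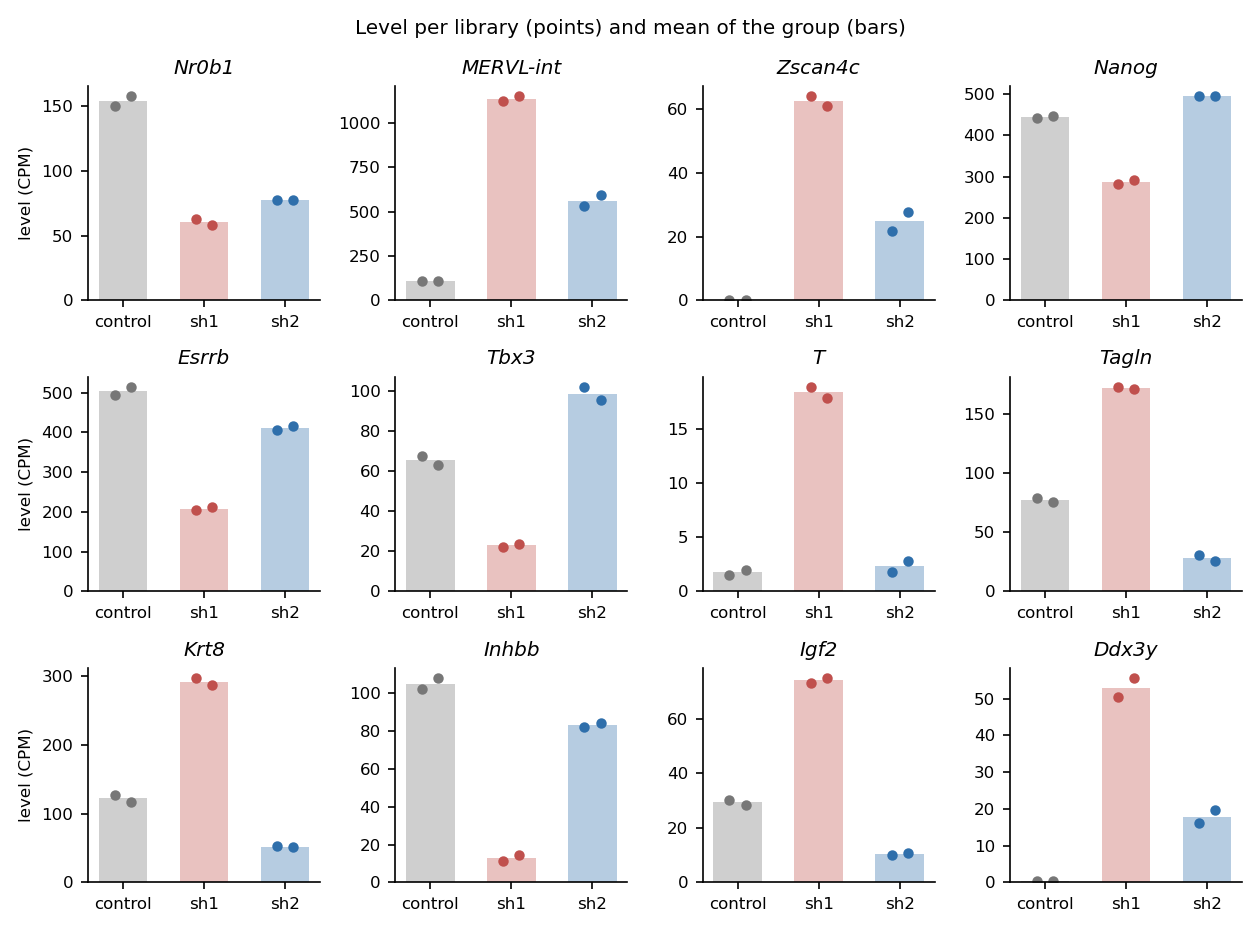
Level in CPM (y axis, from 0) of 11 genes and the MERVL-int element in each library (points) with the mean of the 2 libraries (bars) for control, sh1 and sh2. Nr0b1 is lowest with sh1, MERVL-int and Zscan4c are highest with sh1 and between the groups with sh2, and Tbx3, Tagln, Krt8 and Igf2 with the 2 hairpins lie on opposite sides of the controls.

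Genes known to hold the 2-cell state back, or to promote it, differed little in size. Of 43 tested, 26 rose and 7 fell with sh2, where 17.9% of all genes rose and 19% fell, and the median log2 fold change was 0.20. Only 1 rise and 1 fall, that of Dux, reached 1.5-fold. The rise was Sumo2, which encodes a small ubiquitin-like modifier that many repressors of the state carry. It was at 442 and 356 CPM in the controls, 192 and 200.4 CPM with sh1, and 362 and 419 CPM with sh2 (log2 fold change 0.99, SE 0.0706, adjusted p = 8.17e-12). Zmym3 and Mga, which encode parts of chromatin repressor complexes, were at 44.1 and 41.1 CPM with sh1 against 61.4 and 64.9 CPM with sh2 and at 113 and 125 CPM with sh1 against 167 and 174 CPM with sh2. Both rose, by log2 fold changes of 0.57 and 0.52. Without chromosomes 1, 19 and Y, 23 members rose and 7 fell.

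Naive pluripotency genes were the largest group that was higher with sh2. All 51 listed genes could be tested: 38 rose, 5 fell and 8 were not called, with a median log2 fold change of 0.46. With a 1.5-fold minimum 21 rose and 3 fell, and without chromosomes 1, 19 and Y 35 rose and 5 fell. The summed level of the list was 13737 and 13836 CPM in the controls, 11105 and 10952 CPM with sh1, and 14340 and 14096 CPM with sh2. The summed naive RNA was thus low with sh1 and slightly above the control level with sh2. Gene by gene, sh2 was not shifted from the controls in 1 direction: 16 members were higher, 14 lower and 21 not called (median log2 fold change 0.006). With sh1, 8 members were higher than in the controls and 36 lower.

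The differences varied in size among the factors of the network. Pou5f1 (OCT4), on which all pluripotent states depend, was at 1890.3 and 1901 CPM in the controls, 1795 and 1729.5 CPM with sh1, and 2097 and 1989 CPM with sh2 (log2 fold change 0.21, SE 0.0375, adjusted p = 5.21e-05). Sox2, its partner, was at 377 and 370.1 CPM with sh1 against 512 and 527 CPM with sh2 (log2 fold change 0.48, SE 0.0442, adjusted p = 1.61e-09). Nanog, the homeobox factor of the naive network, was at 443 and 447 CPM in the controls, 282 and 292 CPM with sh1, and 495 and 495 CPM with sh2 (log2 fold change 0.79, SE 0.0437, adjusted p = 4.13e-14). All 3 were higher with sh2, and the hairpin groups did not overlap. Esrrb, an orphan nuclear receptor and activator of the network, was at 494 and 513 CPM in the controls, 204 and 212 CPM with sh1, and 406 and 416 CPM with sh2 (log2 fold change 0.98, SE 0.046, adjusted p = 9.15e-16). Tfcp2l1, a transcription factor downstream of LIF signals, was at 302 and 299 CPM in the controls, 93.5 and 96.4 CPM with sh1, and 179 and 189.7 CPM with sh2 (log2 fold change 0.96, SE 0.0522, adjusted p = 2.73e-14), and Klf4, a LIF-responsive zinc finger factor, at 97 and 109 CPM with sh1 against 158 and 161 CPM with sh2 (log2 fold change 0.63, SE 0.0557, adjusted p = 5.66e-10). For these 3 the sh2 libraries lay between sh1 and the controls.

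Tbx3, a T-box factor that sustains naive ES cells, had the largest rise of the list. It was at 67.5 and 63 CPM in the controls, 22.1 and 23.7 CPM with sh1, and 102 and 95.4 CPM with sh2 (log2 fold change 2.11, SE 0.0753, adjusted p = 2.43e-18), so that sh1 lay below the controls and sh2 above them. Mras, a small GTPase gene, was at 52.1 and 53.8 CPM in the controls, 14.7 and 13.5 CPM with sh1, and 49.2 and 45.2 CPM with sh2 (log2 fold change 1.75, SE 0.0931, adjusted p = 1.69e-14). Prdm14, which represses epiblast maturation and maintains low DNA methylation, was at 7.4 and 6.25 CPM with sh1 against 16.4 and 18.5 CPM with sh2 (log2 fold change 1.35, SE 0.136, adjusted p = 7.31e-09). Tet2, which encodes an enzyme that oxidises 5-methylcytosine, was at 62.6 and 58.7 CPM in the controls, 32.5 and 35.4 CPM with sh1, and 72.8 and 82.1 CPM with sh2 (log2 fold change 1.19, SE 0.0771, adjusted p = 1.17e-12). Tfcp2l1, Prdm14 and Nr5a2 lie on chromosome 1, whose median was raised. Nr5a2, a nuclear receptor whose activity DAX1 represses in other tissues, had a log2 fold change of 0.70.

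The falls in the list included all 3 Id genes in it. These encode inhibitors of basic helix-loop-helix factors and are direct targets of BMP signals. Id1 was at 97.4 and 98.5 CPM in the controls, 219.8 and 212 CPM with sh1, and 104 and 103 CPM with sh2 (log2 fold change -1.06, SE 0.0508, adjusted p = 1.58e-15). Id2 was at 25.5 and 22.8 CPM in the controls, 76.4 and 68.2 CPM with sh1, and 21.2 and 23.2 CPM with sh2 (log2 fold change -1.70, SE 0.0873, adjusted p = 7.52e-15), and Id3 had a log2 fold change of -1.03. With sh2, Id1 and Id2 did not pass the test against the controls (adjusted p = 0.298 and 0.39), while Id3 was higher than in the controls (log2 fold change 0.44, adjusted p = 0.000991). The remaining falls were Dppa3 (-0.57) and Lin28a (-0.17).

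Mesenchymal, matrix and actin cytoskeleton genes held the largest falls. The table held 81 of these genes, and 73 could be tested, 6 of them only through sh1. With sh2, 63 fell, 4 rose and 6 were not called, with a median log2 fold change of -1.24. With a 1.5-fold minimum 51 fell and 2 rose, where 11% of all genes fell. Without chromosomes 1, 19 and Y, 54 fell and 3 rose. The list's sum was 5677 and 5673 CPM in the controls, 7581 and 7702 CPM with sh1, and 5136 and 5160 CPM with sh2, so the sh2 sum lay below both other groups.

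Actin-binding and contractile genes came first. Tagln, which encodes the smooth muscle actin-binding protein transgelin, was at 78.6 and 75.6 CPM in the controls, 172 and 170.5 CPM with sh1, and 30.4 and 25.5 CPM with sh2 (log2 fold change -2.62, SE 0.0697, adjusted p = 6.09e-21). Tpm1, a tropomyosin gene, was at 161 and 158 CPM in the controls, 358 and 349 CPM with sh1, and 102 and 99.3 CPM with sh2 (log2 fold change -1.81, SE 0.0498, adjusted p = 1.02e-20). Zyx, which encodes a focal adhesion protein, was at 32.2 and 30.7 CPM in the controls, 116 and 109.9 CPM with sh1, and 26 and 27.6 CPM with sh2 (log2 fold change -2.08, SE 0.0727, adjusted p = 1.69e-18). In all 3 the sh1 libraries were above the controls and the sh2 libraries below. Many genes of this kind are classic targets of serum response factor through the CArG box, a short element of A and T bases with CC before and GG after them. Of the 55 tested members that RefSeq gave a promoter, 5 held a CArG box on either strand, or 9.09%, beside 1.63% of all 32851 promoters of that length. All 5 (Cnn2, Myl9, Vcl, Srf and Fhl2) fell with sh2. So did 63 of the 73 tested members of the list, so these falls do not set genes with the box apart. For list members only the first promoter of each gene was searched, while the share of all promoters counted every promoter. The shares are therefore of unlike sets, here and in the promoter searches below. Myl9, a myosin light chain gene picked for its match after its values were seen, fell by 2.74-fold. Its promoter is shown with the CArG box in capitals (chr2:156775214-156775513, plus strand).
Myl9: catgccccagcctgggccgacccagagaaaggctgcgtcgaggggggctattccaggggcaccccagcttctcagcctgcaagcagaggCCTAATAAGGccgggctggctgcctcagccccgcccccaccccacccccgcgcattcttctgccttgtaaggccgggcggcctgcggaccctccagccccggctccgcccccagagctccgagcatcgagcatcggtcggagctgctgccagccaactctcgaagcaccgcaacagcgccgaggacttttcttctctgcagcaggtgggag
A match in this window describes its letters and does not show that the factor bound there.

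Genes of secreted proteins, matrix proteins among them, fell as well. Col1a1, the main fibrillar collagen gene, was at 6.55 and 4.49 CPM in the controls, 23 and 25 CPM with sh1, and 2.48 and 2.31 CPM with sh2 (log2 fold change -3.32, SE 0.181, adjusted p = 2.73e-14). Col3a1 was at 1.87 and 0.652 CPM in the controls, 3.98 and 4.62 CPM with sh1, and 0.301 and 0.308 CPM with sh2 (log2 fold change -3.78, SE 0.463, adjusted p = 2.39e-07), on few reads and on chromosome 1. Thbs1, which encodes the matrix protein thrombospondin, was at 50.6 and 52.9 CPM in the controls, 96.3 and 103 CPM with sh1, and 20.8 and 22.1 CPM with sh2 (log2 fold change -2.22, SE 0.0766, adjusted p = 1.31e-18). Igfbp3, which encodes a carrier of insulin-like growth factors, was at 27.8 and 25.9 CPM in the controls, 134 and 139.7 CPM with sh1, and 34.1 and 30.7 CPM with sh2 (log2 fold change -2.08, SE 0.0701, adjusted p = 8.69e-19), where the sh2 libraries lay above the controls. Cyr61, a target of the YAP and TEAD factors that read cell tension, was at 34.2 and 35.2 CPM in the controls, 79.4 and 78.2 CPM with sh1, and 20.1 and 20.4 CPM with sh2 (log2 fold change -1.96, SE 0.0788, adjusted p = 4.01e-17). The TEAD core GGAATG was found on either strand in 14 of the 55 promoters (25.5%), beside 14.7% of all promoters.

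Cav1, which encodes the caveolae protein caveolin, was at 3.08 and 2.39 CPM in the controls, 5.58 and 6.25 CPM with sh1, and 0.676 and 0.385 CPM with sh2 (log2 fold change -3.45, SE 0.337, adjusted p = 4.2e-09). Cd44, a receptor for hyaluronan, was at 4.89 and 4.69 CPM with sh1 against 0.376 and 0.925 CPM with sh2 (log2 fold change -2.87, SE 0.353, adjusted p = 2.52e-07). The 4 members that rose were Fn1 (0.21), Zeb1 (0.51), Tgfbi (1.02) and Pdgfra (1.18), the last a marker of primitive endoderm as well as of fibroblasts. Of 12 fixed fibroblast markers 8 could be tested, and 6 fell and 1 rose. Their sum was 20.2 to 22.0 CPM in the controls, 54.9 to 62.5 CPM with sh1 and 24.4 to 24.9 CPM with sh2. Fap was at 0 in all 6 libraries, Lum at 0 in 5 of them, and Postn and Dcn were below 1 CPM throughout, whereas Tagln and Tpm1 were above 25 CPM throughout.

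Epithelial keratins were lower with sh2 too. Krt8 and Krt18, which pair in the filaments of simple epithelia, were among the most clearly different genes. Krt8 was at 128 and 118 CPM in the controls, 297 and 287 CPM with sh1, and 52.4 and 51.8 CPM with sh2 (log2 fold change -2.49, SE 0.0571, adjusted p = 1.79e-22), and Krt18 at 66.9 and 60.7 CPM in the controls, 138 and 139.7 CPM with sh1, and 24.1 and 20.3 CPM with sh2 (log2 fold change -2.64, SE 0.0766, adjusted p = 3.39e-20). Krt19 was at 15 and 15.6 CPM in the controls, 53.1 and 50.9 CPM with sh1, and 8.49 and 10.3 CPM with sh2 (log2 fold change -2.47, SE 0.106, adjusted p = 1.48e-16), and Krt7 had a log2 fold change of -2.50. For each of these the sh1 libraries lay above the controls and the sh2 libraries below. They belong to the trophectoderm list, of which 22 could be tested. Of the 22, 14 fell and 3 rose (median -0.94), beside 19% and 17.9% of all genes. Cdx2, the trophectoderm master factor, was at 1.61 and 2.83 CPM in the controls, 9.63 and 11.1 CPM with sh1, and 1.43 and 2 CPM with sh2 (log2 fold change -2.60, SE 0.245, adjusted p = 2.15e-09). The sum of 6 fixed trophectoderm markers was 34.5 to 35.2 CPM with sh1 and 16.8 to 16.9 CPM with sh2, with Elf5 at 0 in both sh1 libraries. Eomes, another marker, was at 8.66 and 10.9 CPM with sh1 against 9.47 and 10.2 CPM with sh2 (adjusted p = 0.962).

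**Figure D4:**
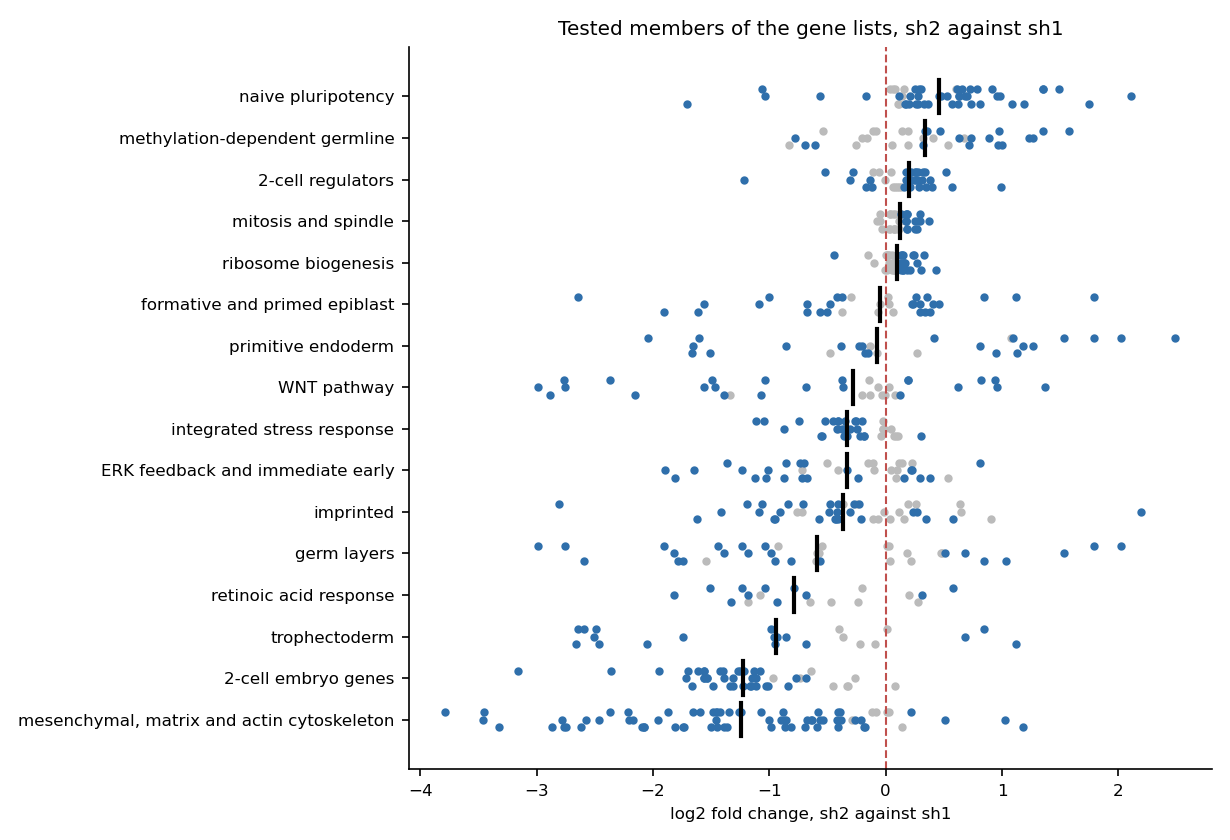
Log2 fold change of sh2 against sh1 (x axis) for each tested member of 16 gene lists (rows). Blue points passed the test, grey points did not, black bars are the list medians and the dashed line is the median of all tested genes; medians run from 0.46 for naive pluripotency to -1.24 for mesenchymal genes.

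More germ layer genes fell than rose. Of 60 listed, 36 could be tested, 7 only through sh1 and 3 only through sh2. Of the 36, 16 fell and 7 rose, with a median of -0.59. Among all genes 19% fell and 17.9% rose, so the count of rises was near that of all genes. DESeq2 called 10 falls in place of 16. Members of the primitive streak, the site where mesoderm forms, went both ways. T (brachyury), its defining T-box factor, was at 1.54 and 2.03 CPM in the controls, 18.9 and 17.9 CPM with sh1, and 1.8 and 2.85 CPM with sh2 (log2 fold change -2.98, SE 0.192, adjusted p = 9.91e-13). Wnt3, the ligand that induces it, was at 1.4 and 1.52 CPM in the controls, 15.8 and 15.5 CPM with sh1, and 2.4 and 2.23 CPM with sh2 (log2 fold change -2.75, SE 0.187, adjusted p = 3.08e-12). Both were high with sh1 alone, at over 6 times the sh2 level, and with sh2 they did not pass the test against the controls (adjusted p = 0.364 and 0.0897). Of other streak genes Mixl1 fell (-1.39), Eomes was not called and Evx1 rose (1.03). Nes, an intermediate filament gene of neural progenitors, was at 28.8 and 31.3 CPM in the controls, 112 and 109 CPM with sh1, and 42.2 and 39.6 CPM with sh2 (log2 fold change -1.44, SE 0.068, adjusted p = 1.18e-15), and Sox11, a factor of young neurons, at 68.2 and 68.4 CPM with sh1 against 36.2 and 34.4 CPM with sh2 (log2 fold change -0.95, SE 0.0724, adjusted p = 3.23e-11). Tubb3, which encodes a neuronal tubulin, rose instead, at 84.6 and 91.8 CPM with sh1 against 127 and 125 CPM with sh2 (log2 fold change 0.51, SE 0.0583, adjusted p = 7.3e-08).

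The endoderm factors among the rises were low in all libraries. Gata6, the master factor of primitive endoderm, was at 1.4 and 1.59 CPM in the controls, 1.05 and 0.612 CPM with sh1, and 3.23 and 3.54 CPM with sh2 (log2 fold change 2.02, SE 0.358, adjusted p = 5.6e-05). Sox17 (1.53) and Foxa2 (1.79) rose as well. Of 7 fixed primitive endoderm markers 6 rose and 0 fell in edgeR's test (6 and 0 at an unadjusted p under 0.05), but DESeq2 called 1 rise and 0 falls, and their sum was 14.0 to 15.0 CPM with sh1 and 22.2 to 24.3 CPM with sh2. The longer primitive endoderm list had 11 rises and 11 falls among 27 tested, 2 of them only through sh2 (median -0.08). Lama1, a laminin gene of its basement membrane, was at 27.2 and 27.7 CPM with sh1 against 57.9 and 62.2 CPM with sh2 (log2 fold change 1.13, SE 0.0804, adjusted p = 8.66e-12), while its falls included matrix genes such as Serpinh1 (-1.66), the collagen chaperone. DESeq2 called 5 rises of that list in place of 11.

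WNT pathway genes showed the same contrast around T and Wnt3. Of 32 tested 15 fell and 8 rose, beside 19% and 17.9% of all genes, with a median of -0.28. Without chromosomes 1, 19 and Y, 14 fell and 4 rose. Sp5, a direct target of WNT and β-catenin and a widely used readout of the pathway, was at 14.8 and 17.5 CPM in the controls, 49.2 and 48.5 CPM with sh1, and 7.06 and 6.16 CPM with sh2 (log2 fold change -2.88, SE 0.116, adjusted p = 4.25e-17). Wls, which encodes the carrier that takes WNT proteins to the cell surface, was at 5.89 and 6.01 CPM in the controls, 17.7 and 18.1 CPM with sh1, and 2.4 and 2.85 CPM with sh2 (log2 fold change -2.77, SE 0.172, adjusted p = 4.94e-13). In both genes sh1 lay above the controls and sh2 below. Axin2, the classic feedback target, differed much less (-0.37), and Lef1 was not called (adjusted p = 0.477). Among genes that dampen the pathway, Sfrp1, a secreted WNT binder, was at 13.3 and 15 CPM with sh1 against 35.9 and 37.6 CPM with sh2 (log2 fold change 1.37, SE 0.108, adjusted p = 5.92e-11), and Notum, a secreted enzyme that inactivates WNT, at 36.4 and 37.2 CPM with sh1 against 74.3 and 66.8 CPM with sh2 (log2 fold change 0.94, SE 0.0744, adjusted p = 7.41e-11). Fzd5, a receptor gene on chromosome 1, was at 63.3 and 65.8 CPM with sh1 against 117 and 134 CPM with sh2 (log2 fold change 0.96, SE 0.0634, adjusted p = 1.78e-12). Of its relatives, Fzd1 (-1.56), Fzd2 (-1.39) and Fzd10 (-0.37) fell, Fzd7 rose (0.19) and Fzd8 was not called. Wnt3, Wls and Sp5 thus fell where Sfrp1 and Notum rose, but other genes of these kinds did not follow. Nkd1 and Nkd2, which encode inhibitors inside the cell, fell (-1.07 and -1.46), as did Sfrp2, a relative of Sfrp1 (-0.68). The ligand gene Wnt6 rose (0.62).

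The promoters of Sp5 (chr2:70474673-70474972, plus strand) and T (chr17:8434173-8434472, plus strand) are shown because these were the WNT targets with the largest falls. Capitals mark the core CTTTGA of TCF and LEF factors on either strand, 2 in Sp5 and 1 in T.
Sp5: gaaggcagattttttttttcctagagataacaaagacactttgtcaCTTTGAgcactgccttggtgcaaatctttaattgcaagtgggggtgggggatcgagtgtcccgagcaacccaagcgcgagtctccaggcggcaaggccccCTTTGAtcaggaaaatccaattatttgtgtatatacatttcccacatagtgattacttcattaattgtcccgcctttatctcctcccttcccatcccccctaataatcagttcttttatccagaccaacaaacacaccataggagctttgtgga
T: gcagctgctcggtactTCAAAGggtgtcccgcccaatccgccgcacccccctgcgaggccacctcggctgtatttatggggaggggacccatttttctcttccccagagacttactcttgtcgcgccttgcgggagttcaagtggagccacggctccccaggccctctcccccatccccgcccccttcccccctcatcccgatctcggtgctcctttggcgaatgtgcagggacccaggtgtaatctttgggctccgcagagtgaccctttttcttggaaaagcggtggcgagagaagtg
Of 22 tested members that RefSeq gave a promoter, 4 held the core (18.2%), beside 16% of all promoters, so such a match is common. The naive pluripotency list was searched for the ESRRB and NR5A2 site TCAAGGTCA, which 0 of 36 promoters held. With 0.423% of all promoters holding it, the site is too rare for that 0 to set the list apart.

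ERK feedback and immediate early genes, which follow growth factor signals, had 16 falls and 6 rises among 35 tested (median -0.33). Among all genes 19% fell and 17.9% rose, so the count of rises was near that of all genes. Dusp4, which encodes a phosphatase of ERK, was at 29.7 and 30.9 CPM in the controls, 80.8 and 82 CPM with sh1, and 23.1 and 23.2 CPM with sh2 (log2 fold change -1.81, SE 0.0769, adjusted p = 1.09e-16), and Dusp6, a second one, at 165 and 159 CPM with sh1 against 101 and 97.8 CPM with sh2 (log2 fold change -0.70, SE 0.0562, adjusted p = 8.49e-11). Fosl2 and Jun, subunits of the AP-1 factor, fell by 3.73-fold and 2.57-fold. Further falls included Dusp5 (-1.65), Dusp1 (-1.23), Ier3 (-1.12) and Junb (-0.72). Some other ERK targets were not called or rose slightly: Spry4 was at 181 and 179 CPM with sh1 against 189 and 196 CPM with sh2 (adjusted p = 0.139), while Etv4 and Etv5 rose by 0.30 and 0.22. Fgf4, the ligand that activates ERK in ES cells, rose, at 124 and 126 CPM with sh1 against 215 and 224 CPM with sh2 (log2 fold change 0.81, SE 0.0498, adjusted p = 3.65e-13).

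Nodal, activin and BMP genes had 10 rises and 7 falls among 30 tested (median 0.07), where 17.9% of all genes rose and 19% fell, so the count of falls was near that of all genes. Inhbb, which encodes a subunit of activin B, had one of the largest rises of all. It was at 102 and 108 CPM in the controls, 11.4 and 14.6 CPM with sh1, and 82.2 and 84.2 CPM with sh2 (log2 fold change 2.68, SE 0.089, adjusted p = 6.45e-19) and lies on chromosome 1. Fst, which encodes the activin antagonist follistatin, was at 6.22 and 5.43 CPM in the controls, 18 and 17.9 CPM with sh1, and 5.33 and 6.01 CPM with sh2 (log2 fold change -1.66, SE 0.148, adjusted p = 7.29e-10). Ligand and antagonist thus moved in opposite directions. Nodal, by contrast, was at 58.5 and 53 CPM in the controls, 124 and 118 CPM with sh1, and 125 and 123 CPM with sh2 and did not pass the test between the hairpins (adjusted p = 0.727). Bmp4 was at 42.1 and 37.7 CPM with sh1 against 64.3 and 63.9 CPM with sh2 (log2 fold change 0.68, SE 0.072, adjusted p = 1.61e-08), higher with sh2, whereas its Id targets above were lower. Among 19 retinoic acid response genes tested, 4 of them only through sh1, 9 fell and 2 rose (median -0.79), and the falls included Cyp26a1 (-1.51), whose product breaks retinoic acid down.

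Genes of the formative and primed epiblast, the states that follow naive pluripotency, were evenly divided. Of 33 tested 13 rose and 13 fell (median -0.05). Otx2, the factor that starts the transition, was at 54.7 and 48.8 CPM in the controls, 22.6 and 22 CPM with sh1, and 46.1 and 50.8 CPM with sh2 (log2 fold change 1.12, SE 0.0885, adjusted p = 7.21e-11). Pou3f1 (OCT6), another factor of the early epiblast, was at 49.8 and 57.6 CPM in the controls, 131 and 132 CPM with sh1, and 64.2 and 59.5 CPM with sh2 (log2 fold change -1.09, SE 0.0655, adjusted p = 2.48e-13). These 2 factors of one transition differed in opposite directions. Pim2, a kinase gene, was at 58.9 and 52.6 CPM in the controls, 311 and 325 CPM with sh1, and 100.2 and 107 CPM with sh2 (log2 fold change -1.62, SE 0.055, adjusted p = 9.44e-19), above the controls with both hairpins. Of the de novo DNA methyltransferases, Dnmt3a was at 214 and 209 CPM with sh1 against 278 and 273 CPM with sh2 (log2 fold change 0.38, SE 0.0466, adjusted p = 2.52e-07) and Dnmt3b at 494 and 505 CPM with sh1 against 351 and 367 CPM with sh2 (log2 fold change -0.48, SE 0.0441, adjusted p = 1.46e-09). The level of Dnmt3l, their cofactor, was 513 and 458 CPM with sh1 against 496 and 489 CPM with sh2 (adjusted p = 0.766).

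**Figure D5:**
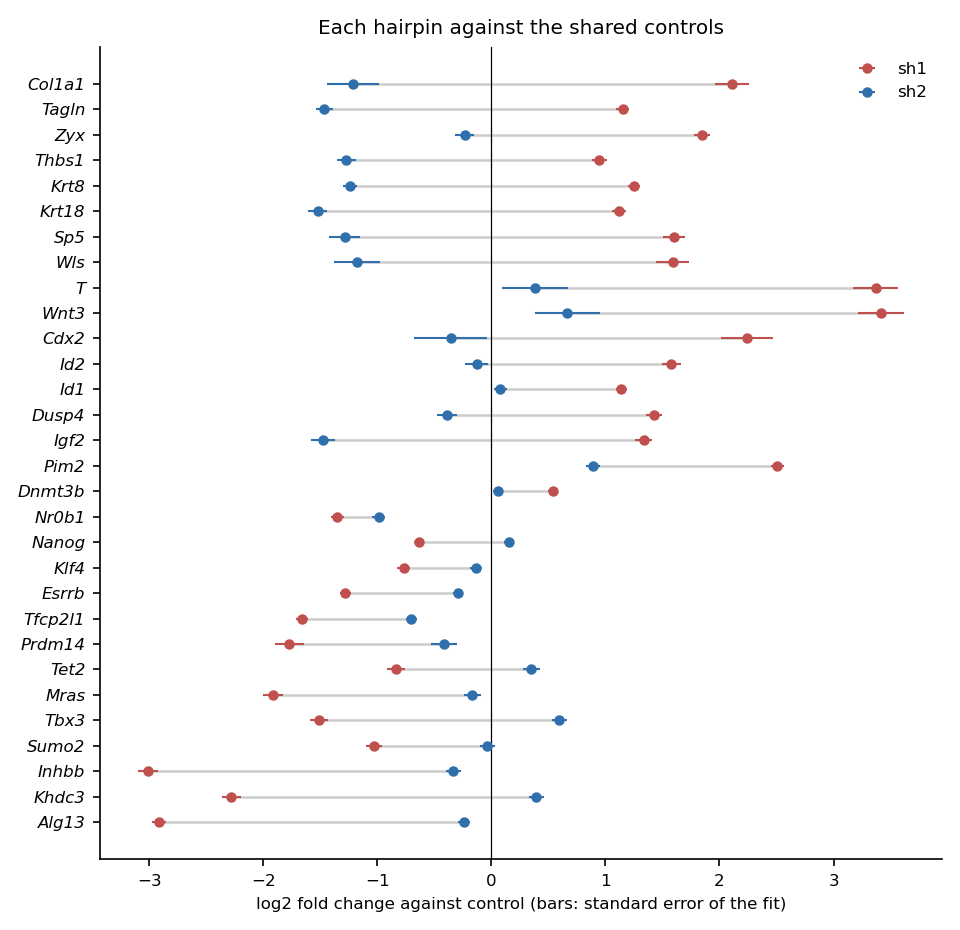
Log2 fold change against control (x axis) of 30 named genes for sh1 (red) and sh2 (blue), with the standard error of the fit as bars; both values share the control libraries. Sp5, Tagln, Krt8 and Igf2 have the 2 hairpins on opposite sides of 0, Inhbb and Alg13 are far below 0 with sh1 alone, and Nr0b1 is below 0 with both.

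Imprinted genes, which are expressed from 1 parental copy, had 23 falls and 5 rises among 43 tested (median -0.36). Of the 43, 2 were tested only through sh1 and 3 only through sh2. Among all genes 19% fell and 17.9% rose. Igf2, the fetal growth factor gene, was at 30.4 and 28.3 CPM in the controls, 73.3 and 74.9 CPM with sh1, and 10.2 and 10.9 CPM with sh2 (log2 fold change -2.81, SE 0.0925, adjusted p = 5.67e-19). Cdkn1c, a cell cycle inhibitor gene and a brake on growth, was at 53.9 and 57.7 CPM in the controls, 149 and 142 CPM with sh1, and 88.6 and 74.3 CPM with sh2 (log2 fold change -0.84, SE 0.0658, adjusted p = 6.02e-11), and Peg10, a retrotransposon-derived placental gene, at 1045 and 1133 CPM with sh1 against 547 and 576 CPM with sh2 (log2 fold change -0.96, SE 0.0446, adjusted p = 8.81e-16). Mest went the other way, at 1.4 and 1.09 CPM in the controls, 1.4 and 1.09 CPM with sh1, and 6.54 and 4.85 CPM with sh2 (log2 fold change 2.19, SE 0.293, adjusted p = 9.76e-07). It was the 1 imprinted gene to rise by 1.5-fold, and sh1 was at the control level. H19, the neighbour of Igf2, had few reads and was not called (adjusted p = 0.163).

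Germline genes that are held silent by DNA methylation in most other cells had 15 rises and 3 falls among 33 tested, 2 of them only through sh1 (median 0.34). They included Dazl, an RNA-binding protein gene of germ cells, at 7.54 and 5.3 CPM with sh1 against 13.7 and 11.5 CPM with sh2 (adjusted p = 4.39e-05), and Stag3, a meiotic cohesin gene, at 15.3 and 17.3 CPM with sh1 against 33.1 and 32.1 CPM with sh2 (adjusted p = 5.63e-09). Of the maternal-effect and oocyte genes 7 could be tested, with 3 rises and 1 fall. Khdc3 and Ooep, neighbours on chromosome 9 that encode parts of the subcortical maternal complex, rose together. Khdc3 was at 72 and 69 CPM in the controls, 14.7 and 14.3 CPM with sh1, and 91.6 and 94 CPM with sh2 (log2 fold change 2.67, SE 0.0791, adjusted p = 4.63e-20), and Ooep at 64.2 and 77.6 CPM in the controls, 22.3 and 23 CPM with sh1, and 62 and 65.3 CPM with sh2 (log2 fold change 1.49, SE 0.0894, adjusted p = 2.31e-13). With sh1 both were far below the controls, and with sh2 near or above them.

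In the stress lists more genes fell than rose with sh2. Of 37 integrated stress response genes tested 26 fell and 1 rose, yet only 4 falls reached 1.5-fold (median -0.33). Asns, which encodes asparagine synthetase, was at 273 and 285 CPM in the controls, 438 and 429 CPM with sh1, and 340.3 and 329 CPM with sh2 (log2 fold change -0.37, SE 0.0451, adjusted p = 1.86e-07), and Ddit4, an inhibitor of mTOR signals, at 112 and 109.5 CPM in the controls, 246 and 257 CPM with sh1, and 116 and 117 CPM with sh2 (log2 fold change -1.11, SE 0.0503, adjusted p = 4.6e-16). The RNAs of Atf4 (adjusted p = 0.292) and Ddit3 (adjusted p = 0.905), the transcription factors of the response, were not called. Of 32 p53 targets 18 fell and 4 rose (median -0.20), beside 19% and 17.9% of all genes, with 3 falls and 2 rises by 1.5-fold. The large rises were Ei24 (log2 fold change 0.78, SE 0.0528, adjusted p = 2.91e-12), which encodes a membrane protein of the endoplasmic reticulum, and Sesn1 (log2 fold change 0.63, SE 0.109, adjusted p = 4.5e-05), which encodes an inhibitor of mTOR signals. Perp, which encodes a desmosome protein, was at 104 and 97.9 CPM with sh1 against 41.2 and 44.7 CPM with sh2 (log2 fold change -1.24, SE 0.0686, adjusted p = 3.9e-14), and Cdkn1a (p21) at 52.8 and 50.5 CPM with sh1 against 34 and 34.5 CPM with sh2 (log2 fold change -0.59, SE 0.0767, adjusted p = 6.09e-07).

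Among 31 tested interferon and double-stranded RNA response genes 13 fell and 4 rose (median -0.06), 4 tested only through sh1. The falls included genes of antigen presentation, guanylate-binding proteins and other interferon-induced proteins. B2m, the light chain of MHC class I, was at 8.96 and 7.9 CPM in the controls, 21.9 and 17.7 CPM with sh1, and 6.09 and 5.7 CPM with sh2 (log2 fold change -1.75, SE 0.151, adjusted p = 3.79e-10), its heavy chain gene H2-K1 at 52.1 and 56.5 CPM with sh1 against 26.1 and 25.1 CPM with sh2 (log2 fold change -1.08, SE 0.0835, adjusted p = 4.17e-11), and Gbp2 at 9.83 and 9.06 CPM in the controls, 26.8 and 27.1 CPM with sh1, and 4.36 and 6.32 CPM with sh2 (log2 fold change -2.34, SE 0.144, adjusted p = 3.79e-13). Bst2, which encodes the membrane protein tetherin, fell by a log2 fold change of -0.94. The related membrane protein genes Ifitm3 and Ifitm2 went opposite ways (-0.51 and 0.56), and the RNA sensor gene Ddx58 (RIG-I) rose (0.56).

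Growth genes differed by small amounts. Of 34 mitosis and spindle genes 16 rose and 0 fell with sh2 in edgeR's test, none by 1.5-fold (median 0.13). DESeq2 called 13 and 0, and 20 and 0 had an unadjusted p under 0.05. Top2a, the topoisomerase of dividing cells, was at 849 and 829 CPM in the controls, 582 and 585 CPM with sh1, and 702 and 730.2 CPM with sh2 (log2 fold change 0.30, SE 0.0411, adjusted p = 1.76e-06). Of 39 ribosome biogenesis genes 18 rose and 1 fell (median 0.10), again none by 1.5-fold. Without chromosomes 1, 19 and Y, the rises numbered 12 in each of these lists. DESeq2 called 12 ribosome biogenesis rises in place of 18.

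Several of the largest differences lay outside these pathways. Alg13, an X-linked gene for a subunit of the enzyme that builds N-glycan precursors, was at 254 and 258 CPM in the controls, 32.5 and 35.4 CPM with sh1, and 209.5 and 225 CPM with sh2 (log2 fold change 2.68, SE 0.0615, adjusted p = 1.79e-22). Sema5b, which encodes a semaphorin, was at 9.3 and 12.2 CPM in the controls, 1.95 and 1.84 CPM with sh1, and 11 and 10.2 CPM with sh2 (log2 fold change 2.49, SE 0.211, adjusted p = 2.81e-10), and Hal, which encodes histidine ammonia-lyase, at 3.21 and 4.27 CPM in the controls, 1.12 and 1.29 CPM with sh1, and 5.86 and 7.32 CPM with sh2 (log2 fold change 2.44, SE 0.272, adjusted p = 4.56e-08). Against the controls, Alg13 and Sema5b had log2 fold changes of -2.92 and -2.49 with sh1 and of -0.24 and -0.01 with sh2. Among the falls, Dsc2, a desmosomal cadherin gene, was at 2.27 and 2.25 CPM in the controls, 12.6 and 11 CPM with sh1, and 1.35 and 1.46 CPM with sh2 (log2 fold change -3.06, SE 0.225, adjusted p = 1.64e-11). Pmp22, a membrane protein gene of myelin and epithelia, was at 5.62 and 5.14 CPM in the controls, 11.8 and 13 CPM with sh1, and 2.03 and 1.46 CPM with sh2 (log2 fold change -2.82, SE 0.21, adjusted p = 2.11e-11), and Tinagl1, a matrix protein gene, at 5.28 and 4.71 CPM in the controls, 22.9 and 18.4 CPM with sh1, and 3.01 and 2.85 CPM with sh2 (log2 fold change -2.81, SE 0.175, adjusted p = 4.52e-13). Rgs17, which encodes a regulator of G protein signals, and Zfp703, which encodes a zinc finger repressor, fell by 7.75-fold and 8.8-fold from under 5 CPM.

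Transposable elements other than MERVL leaned to sh2. Of 827 tested element families 181 were higher and 36 lower, or 21.9% and 4.35%, with a median log2 fold change of 0.18 beside 0.00 for genes. With a 1.5-fold minimum, 31 rose (3.75%) and 16 fell (1.93%). The count of rises was 106 by DESeq2 and 109 without the second sh2 library, and the count of falls was 23 without the first. Elements took 5.41% and 5.58% of counts with sh1 and 5.57% and 5.98% with sh2, shares that overlap, and their part in the result was not tested.

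SINE elements, short repeats often transcribed within other genes' RNAs, were the most uniform class, with 30 of 35 higher and 0 lower in edgeR's test (median 0.22). The counts were 27 and 0 by DESeq2 and 30 and 0 at an unadjusted p under 0.05. B2_Mm1a was at 440.5 and 355 CPM in the controls, 492 and 426 CPM with sh1, and 642 and 646 CPM with sh2 (log2 fold change 0.49, SE 0.0655, adjusted p = 1.03e-06). LINE-1 families had 34 rises and 2 falls among 114 (median 0.18), and DESeq2 called 13 rises. Of the 6 young LINE-1 families only L1Md_F2 rose, at 528 and 514 CPM with sh1 against 540.0 and 596 CPM with sh2 (log2 fold change 0.12, SE 0.0469, adjusted p = 0.0379), and DESeq2 did not call it (adjusted p = 0.0917). MaLR repeats had 30 rises and 1 fall among 85 (median 0.18), including ORR1B1-int at 95.7 and 90.1 CPM with sh1 against 128 and 140.2 CPM with sh2 (log2 fold change 0.53, SE 0.0595, adjusted p = 5.2e-08). The LINE-1 and MaLR medians equal that of all elements.

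Some retroviral families went their own way. RMER15, an ERVL-type repeat, was at 127 and 114 CPM in the controls, 145 and 148 CPM with sh1, and 252 and 252 CPM with sh2 (log2 fold change 0.78, SE 0.0522, adjusted p = 2.14e-12). RLTR6B_Mm, a long terminal repeat of a gammaretrovirus-like family, was at 9.9 and 6.67 CPM in the controls, 49.8 and 40.2 CPM with sh1, and 20.3 and 20.6 CPM with sh2 (log2 fold change -1.14, SE 0.114, adjusted p = 6.97e-09), and the internal region RLTR1B-int at 361 and 397 CPM with sh1 against 254 and 270.3 CPM with sh2 (log2 fold change -0.53, SE 0.0501, adjusted p = 2.01e-09). Of 22 IAP families, an active retrovirus group of the mouse, 1 rose and 2 fell, among them IAPEY4_I-int at 33.3 and 28.8 CPM in the controls, 66.2 and 63.6 CPM with sh1, and 33.8 and 39.9 CPM with sh2 (log2 fold change -0.82, SE 0.0836, adjusted p = 9.49e-09). The gene list of retroelement silencing had 17 rises and 4 falls among 41 (median 0.11), with 2 rises and 1 fall by 1.5-fold.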

How the data were processed

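RNA-seq read counts of 6 libraries (control, sh1 and sh2, 2 each) were used. The authors deposited 1 table of raw counts per gene and per transposable element family, all whole numbers. Per the submitters' processing notes, mm10 was the genome build and the series' tools included Cufflinks 2.2.1, HISAT2 2.1.0 and Trim Galore. Which tool and annotation gave the counts, and how strand and multiply mapped reads were treated, is not stated in those notes. Reads of overlapping or antisense genes cannot be told apart without strand.

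The table had 25574 rows: 24394 genes, 1153 elements and 27 gene names turned into dates, which stayed in library totals (at most 0.164% of counts) and were not tested. After filterByExpr 14017 genes and 827 elements were fitted together in edgeR 4.0.16 (R 4.3.3) with TMM scaling and the quasi-likelihood F test, with 3 groups sharing 1 estimate of spread (biological coefficient of variation 0.0392). A call is a p under 0.05 after Benjamini-Hochberg adjustment over every tested feature. CPM use TMM-scaled totals, not gene length. "Rose" and "fell" mean called higher or lower with sh2 than with sh1. Counting differed between replicates by more than sampling noise in every group (chi-square per degree of freedom 2.27 to 2.68), so no library was merged. With the 6 libraries simulated, 14579 features were fitted, of which 67 were changed by 1.5-fold, 67 by 2-fold and 66 by 4-fold. The test recovered 68.7%, 91% and 100% of these changes, in that order, with 9 false calls.

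Gene and element lists and the rule for named genes were written with earlier results of these data known: the targeted and 2-cell marker genes, the 12 largest rises and falls, and up to 8 called members of each list. The text names a subset of these and some further members, chosen after their values were seen. Gene positions and promoters are RefSeq's (GRCm38.p6), and 99.5% of gene names were found there. Alternatives were DESeq2 1.42.0, other scalings, other filters, other library sets, a minimum fold and leaving out each library. Hairpin sequences are not shown, and values of some single genes are not reported here.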

Additional observations from a re-analysis of the deposited data

Results flagged for a closer look

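For 21 of the named genes the hairpins lay on opposite sides of the controls, each called against them, and at least 2 log2 units apart. Both comparisons with the controls share the control libraries, and the direct difference was the test. The values below are log2 fold changes of sh2 against sh1, with those of sh1 and of sh2 against the controls after them.

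Of the matrix, adhesion and contractile genes, Col3a1 stood at -3.78 (1.74 and -2.04), Col1a1 at -3.32 (2.11 and -1.21), Cav1 at -3.45 (1.11 and -2.35), Cd44 at -2.87 (1.51 and -1.36), Tagln at -2.62 (1.15 and -1.46), Thbs1 at -2.22 (0.95 and -1.27), Zyx at -2.08 (1.84 and -0.23) and Tinagl1 at -2.81 (2.04 and -0.77). Epithelial genes were Krt18 at -2.64 (1.12 and -1.52), Krt7 at -2.5 (1.6 and -0.9), Krt8 at -2.49 (1.25 and -1.24) and Krt19 at -2.47 (1.76 and -0.7). Signalling and growth genes were Sp5 at -2.88 (1.6 and -1.28), Wls at -2.77 (1.59 and -1.18) and Igf2 at -2.81 (1.33 and -1.47). Zfp703 stood at -3.14 (1.08 and -2.05), Pmp22 at -2.82 (1.2 and -1.62) and Gbp2 at -2.34 (1.51 and -0.83). Only 3 of the 21 were higher with sh2: Tbx3 at 2.11 (-1.51 and 0.59), Hal at 2.44 (-1.62 and 0.82) and Khdc3 at 2.67 (-2.28 and 0.39). The levels of Col3a1, Cav1, Cd44 and Zfp703 with sh2 were below 1 CPM, so their fold changes rest on few reads.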

How the results depend on the processing

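Apart from the counts below, each count over all features and for the 2-cell, naive, germ layer and mesenchymal lists stayed within 1.5 times its value, and Nr0b1 stayed higher with sh2. DESeq2 gave 106 elements higher with sh2 than with sh1, 10 germ layer falls, 29 elements lower with sh1 than in the controls, and, for sh2 against control, 953 genes higher, 1159 lower, 93 elements higher and 3 lower. Upper-quartile scaling gave 42 elements lower with sh1 than in the controls, and no filter on low counts gave 18 elements lower with sh2. With a 1.5-fold minimum the counts for sh2 against sh1 were 538 and 1544 genes, 31 and 16 elements, and 21 naive rises. For sh1 against control they were 1819 and 744 genes and 64 and 13 elements, and for sh2 against control 665 and 465 genes and 69 and 3 elements, higher first.

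Leaving out 1 library at a time gave 1931 to 2468 genes higher with sh2, 2034 to 2720 lower, 109 to 188 elements higher and 23 to 37 lower. It gave 31 to 38 falls of 2-cell genes, 35 to 38 naive rises, 11 to 15 germ layer falls, 56 to 65 mesenchymal falls and 0.31 to 0.41 for Nr0b1. For sh1 against control it gave 2390 to 3240 genes higher, 2444 to 3165 lower, 80 to 111 elements higher and 25 to 79 lower. For sh2 against control it gave 1011 to 1691, 1304 to 1953, 89 to 200 and 3 to 15. A lone library was taken to vary like the other groups.

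A replicate block gave 2745 genes higher and 2821 lower and 0.36 for Nr0b1. The numbers were not shown to pair libraries: deviations of same-numbered libraries correlated at 0.04 (control and sh1), -0.03 (control and sh2) and 0.16 (sh1 and sh2). Leaving out the genes of chromosomes 1, 19 and Y was chosen after the data were seen.

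Of single features, L1Md_F2 lost its call in 7 of 13 settings (adjusted p up to 0.46), Dux was not called by DESeq2 or without the first sh2 library, and Tcstv3 was called without that library. With 2 libraries a group at this depth, differences of genes near 1 CPM or under 1.5-fold are the least certain.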

Other observations

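Nuclear receptors and known partners of DAX1 had 13 rises and 5 falls with sh2 among 30 tested genes, where 17.9% and 19% of all genes did, with a median log2 fold change of 0.13. Nr0b1 itself, the targeted gene, is in the list and is 1 of the 13 rises. Of the 30, 2 were tested only through sh1 and 1 only through sh2. Besides Esrrb and Nr5a2, the coactivator genes Ncoa1 (0.56), Ncoa2 (0.47) and Ncoa3 (0.43) and the corepressor gene Ncor1 (0.36) rose. Rara, a retinoic acid receptor gene, rose by 0.58, and Rxra, the gene of its dimer partner, had a log2 fold change of -0.35 and fell.

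Metabolic lists were near the middle of all genes. Among 31 cholesterol synthesis genes 6 rose and 3 fell (median 0.04). Among 42 glycolysis and hypoxia genes 9 rose and 12 fell (median 0.02), with the glucose transporter gene Slc2a1 at 872 and 884 CPM with sh1 against 587 and 573 CPM with sh2 (adjusted p = 2.67e-12). G1 cyclins and inhibitors of cyclin-dependent kinases had 8 rises and 4 falls among 22 (median 0.04). The count of falls was near that of all genes, of which 19% fell. The falls were the inhibitor genes Cdkn1a, Cdkn1c, Cdkn2b (-1.21) and Cdkn2c (-1.28), but another inhibitor gene, Cdkn1b, rose (0.23). Cdkn2a and Cdkn2d, inhibitor genes as well, were not called. Small RNA machinery had 5 rises and 1 fall among 14, none by 1.5-fold. ETn and MusD elements had 2 falls among 5, and satellites 2 rises among 5.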
